A study of Mus musculus with 6 samples.

Results

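The genes described are the subunits of the receptors for GABA, glycine and glutamate, chosen by symbol alone. Every counted symbol with the stem of a GABA-A, GABA-B, glycine, AMPA, kainate, delta, NMDA or metabotropic glutamate receptor subunit was taken, which gave 52 of 38926 genes. They were 19 GABA-A genes (6 alpha, 3 beta, 3 gamma, 3 rho and 4 others), 2 GABA-B, 5 glycine, 4 AMPA, 5 kainate, 2 delta, 7 NMDA and 8 metabotropic glutamate receptor genes. The rule used no measured value, but it was set with earlier results of these data known. Total RNA was sequenced from dorsal root ganglia taken whole at lumbar levels 3 to 5; these ganglia hold the cell bodies of sensory neurons and lie beside the spinal cord. All mice were male wild-type C57BL/6 animals of 6 to 8 weeks. The burn group (burn injury, day 3) and the control group had 3 libraries each. The burn library called burn 3 here is titled BURN_IP and has no number, and which side of the body the burn libraries came from is not given. What the controls underwent is not stated in the labels, nor whether each library came from its own animals, so the spread behind a p-value may be technical alone.

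GABA is the main inhibitory transmitter of the central nervous system, glycine serves inhibition in the spinal cord and brainstem, and glutamate is the main excitatory transmitter. GABA-A and glycine receptors are chloride channels built from several subunits, and GABA-B receptors are G-protein-coupled pairs. AMPA, kainate and NMDA receptors are cation channels opened by glutamate, while metabotropic glutamate receptors signal through G proteins. Sensory neurons of the ganglion release glutamate from their central terminals and carry many of these receptors themselves. GABA depolarises sensory neurons because their internal chloride is high, and receptors on their terminals regulate release in the dorsal horn.

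Reads counted in genes ran from 17273908 to 81968142 per library, and control 3 and burn 3 were the deepest libraries of their groups. These libraries also stood apart from the other 4 on the first principal component, which held 39.4% of the variance. The summed level of 10 sensory neuron markers was 9586 to 12308 CPM (read counts relative to the TMM-scaled library size) in controls and 9119 to 10935 after the burn, so markers of the labelled tissue were high in all libraries. Of these 10 genes 1 had a positive log2 fold change (median -0.12), where 52.1% of all genes tested did. In edgeR 0 of them had an unadjusted p under 0.05 in either direction. A list of 12 spinal cord and central nervous system markers, none of them at 0 in all libraries, summed to 124, 124 and 67.6 CPM in control 1, 2 and 3 and to 211, 126 and 294 in burn 1, 2 and 3. This list was chosen with earlier results of these data known. Of its 12 genes, 11 had a positive log2 fold change, 10 of them at an unadjusted p under 0.05 in edgeR. Of all genes tested, 52.1% were positive and 2.04% were higher at this limit. After adjustment 0 of the 12 passed in edgeR, while DESeq2 called 1, Gad2 (adjusted p 0.0196), where it called 0.104% of genes. The sum was higher in burn 1 and burn 3 than in all controls and in burn 2 close to control 1 and control 2. Mobp, Slc1a2 and Aqp4 had the highest levels in the sum (47.8, 38.7 and 24.9 CPM in burn 2). The mean log2 CPM of the list was 1.30, 1.25 and 0.404 in control 1 to 3 and 2.42, 1.55 and 2.59 in burn 1 to 3. By this measure every burn library lay above every control. So it was for Olig1, Mog, Opalin, Slc6a5, Slc32a1 and Gad2, where 4.33% of all genes were fully higher, while the other markers overlapped. Skeletal muscle markers summed to 1377 to 19832 CPM in controls and 3250 to 16808 after the burn. The spinal cord values are given beside the receptor results, since many of the receptors are also known from spinal cord.

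To show what lies in front of members at different levels, the 250 bases before the RefSeq start site (GRCm38.p6) are printed for 3 of them, 5′ to 3′ on the gene's strand, with CG dinucleotides in capitals. Gabbr1 had the highest level of all members per kilobase, Gabra5 was a member of intermediate level whose groups did not overlap, and Gabra6 had almost no reads.
Gabbr1, chr17:37045716-37045965, plus strand: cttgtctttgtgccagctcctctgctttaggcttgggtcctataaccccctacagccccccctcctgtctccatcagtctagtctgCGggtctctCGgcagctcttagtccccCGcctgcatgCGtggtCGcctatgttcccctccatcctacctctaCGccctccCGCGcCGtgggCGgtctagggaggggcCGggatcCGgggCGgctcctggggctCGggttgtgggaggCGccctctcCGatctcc
Gabra5, chr7:57510060-57510309, minus strand: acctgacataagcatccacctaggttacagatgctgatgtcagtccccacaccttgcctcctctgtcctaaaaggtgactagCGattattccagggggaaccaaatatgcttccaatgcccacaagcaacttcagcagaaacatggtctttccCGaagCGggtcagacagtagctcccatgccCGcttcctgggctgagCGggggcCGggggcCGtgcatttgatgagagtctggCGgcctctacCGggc
Gabra6, chr11:42321073-42321322, minus strand: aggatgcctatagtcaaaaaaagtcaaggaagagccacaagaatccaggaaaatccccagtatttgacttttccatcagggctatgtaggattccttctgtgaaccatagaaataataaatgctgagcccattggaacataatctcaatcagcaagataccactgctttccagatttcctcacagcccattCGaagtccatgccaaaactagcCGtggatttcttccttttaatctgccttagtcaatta
The stretches held 16 CG dinucleotides for Gabbr1, 9 for Gabra5 and 2 for Gabra6. Promoter windows of 300 bases (250 before to 50 after the start) were matched for 36 of the 52 members. Taking each gene's window with most CG, the median was 25.5 for 16 members at or above 10 CPM in controls, 12.5 for 6 members at 1 to 10 CPM and 6 for 14 members under 1 CPM, against 8 over 27025 genes. The order had exceptions: Gabra3 at 14.3 CPM had 0 CG in its windows, and Gabre at 0.459 CPM had 24. All genes were not divided by level in the same way, so whether the order is particular to the members was not tested. The palindrome TGACGTCA, the full site of the CREB and ATF factors, was in 0 of 43 member windows and in 1.79% of all windows. The pattern TGANTCA (N any base), which is wider than the AP-1 site, was in 2 member windows (4.65%), those of Grin3b and Grm8. It was in 7.81% of all windows. Both motifs read the same on either strand and do not overlap each other.

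In control ganglia the members differed widely in level. By CPM, 4 members stood above 100 (Gabbr1, Gabbr2, Glrb and Grik1), 21 at 10 to 100, 11 at 1 to 10, 10 at 0.1 to 1 and 6 below 0.1. Levels were compared between genes per kilobase of annotated exon. The GABA-B class had the highest summed control level, 83.5 ± 10.6 CPM per kilobase (SD, n = 3), from its 2 genes. The kainate class followed at 52.6 ± 3.84, GABA-A at 52.1 ± 14.7, glycine at 35.8 ± 10.8, AMPA at 21.8 ± 2.80, metabotropic glutamate at 18.9 ± 2.19 and NMDA at 9.18 ± 1.13, all in CPM per kilobase. The 3 control values of kainate and GABA-A overlapped, as did those of GABA-A and glycine, and of AMPA and metabotropic glutamate. Those of glycine and AMPA overlapped narrowly, with glycine at 24.6 in control 2 and AMPA at 25.0 in control 3. After the burn the same sums were 85.1 ± 6.06 for GABA-B, 53.8 ± 2.02 for kainate, 57.3 ± 12.3 for GABA-A and 36.9 ± 9.35 for glycine. They were 23.7 ± 3.97 for AMPA, 20.3 ± 1.43 for metabotropic glutamate and 9.38 ± 0.458 for NMDA. For each of these classes the 2 group means lay within 1 SD of each other, the larger SD being used.

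**Figure D1:**
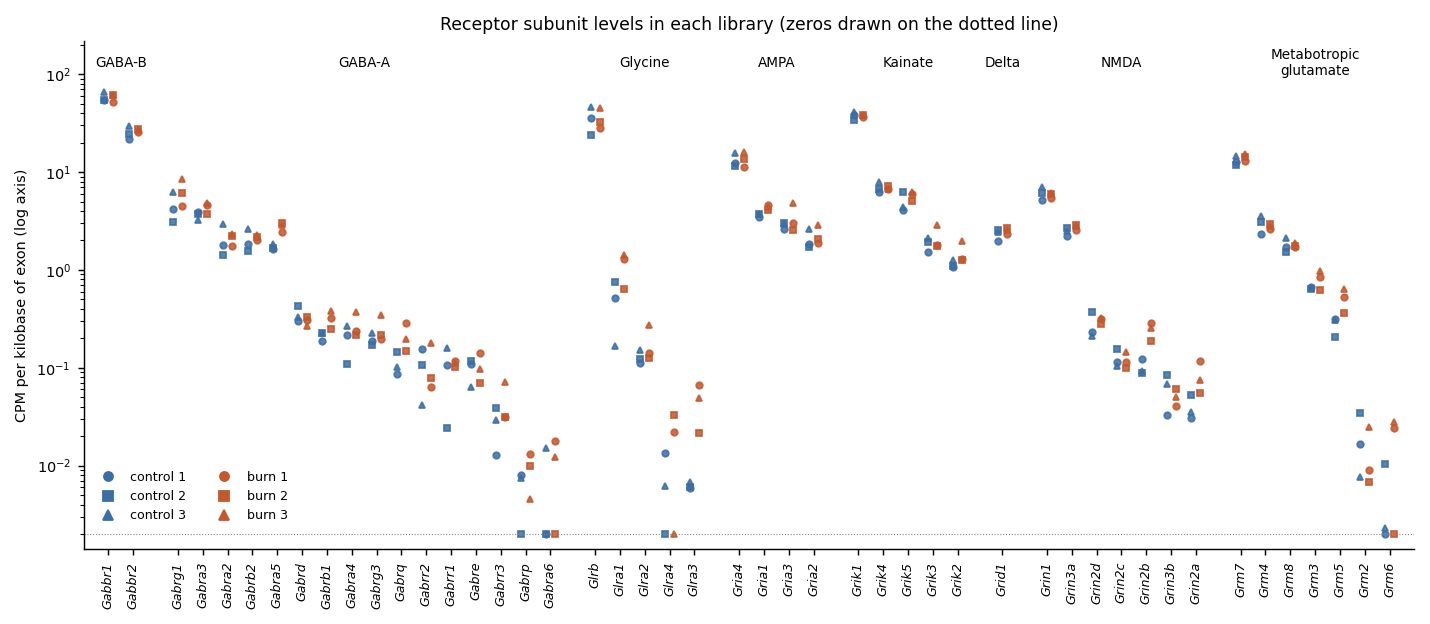
Level of 47 of the 52 receptor genes in CPM per kilobase of exon (log axis) in every library, with classes side by side and genes ordered by control level; blue marks are controls, orange marks burn, and shape gives the library number. Gabbr1, Grik1 and Glrb stand highest, and the abundant genes show blue and orange marks at like heights.

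Of the 52 members, 42 had enough reads to be tested, and 0 passed in edgeR's quasi-likelihood test at an adjusted p under 0.05, against a background of 0.0228% of 17534 genes. DESeq2 called 1 member, Grin2b, where it called 0.104% of genes, and limma-voom called 0 members and 0.0171% of genes. With an unadjusted p under 0.05 as the limit, 9 members (21.4% of those tested) lay above control and 0 below, where 2.04% of all genes were higher and 0.924% lower. Among the 9 were Grin2b, Grin2a, Grm5, Glra1, Gabra5, Gabrb1, Gabrq and Gria1. In 9 tested members, which were the same with Grik2 in place of Glra1, every burn library lay above every control library and in 0 every one lay below, where 4.33% of all genes were fully higher and 2.91% fully lower. Log2 fold changes were positive in 36 of 42 tested members and in 52.1% of all genes tested. Their median was 0.19, against 0.01 over all genes. The unadjusted count was 5 without control 1, burn 1 or burn 3, where 1.43%, 1.38% and 1.74% of all genes were higher. Without control 3 the count of members without overlap was 20, all higher, where 9.56% of genes were fully higher and 10.6% fully lower. In the 4 shallower libraries alone it was also 20, where 14.2% of genes were fully higher and 14.1% fully lower. Members share libraries, so these counts describe the family and are no test of it.

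The larger differences were those of members at low level. A division at a mean of 10 CPM over all 6 libraries, chosen after the values were seen, left 25 members above it with a median log2 fold change of 0.08 and a range of -0.09 to 0.50. The 17 tested members below it had a median of 0.52 and a range of -0.20 to 1.30. Of the 9 members at an unadjusted p under 0.05, 8 were in the lower set, the exception being Gria1. Of the 9 without overlap 7 were in it, the exceptions being Gria1 and Grik2. Over all tested genes of any level, 2.04% were higher at this limit and 4.33% were fully higher. All genes were not divided by level in the same way, so whether low-level genes in general differ more was not tested. Precision differed as well: standard errors ran from 0.11 to 0.31 above 10 CPM and from 0.16 to 0.55 below it.

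**Figure D2:**
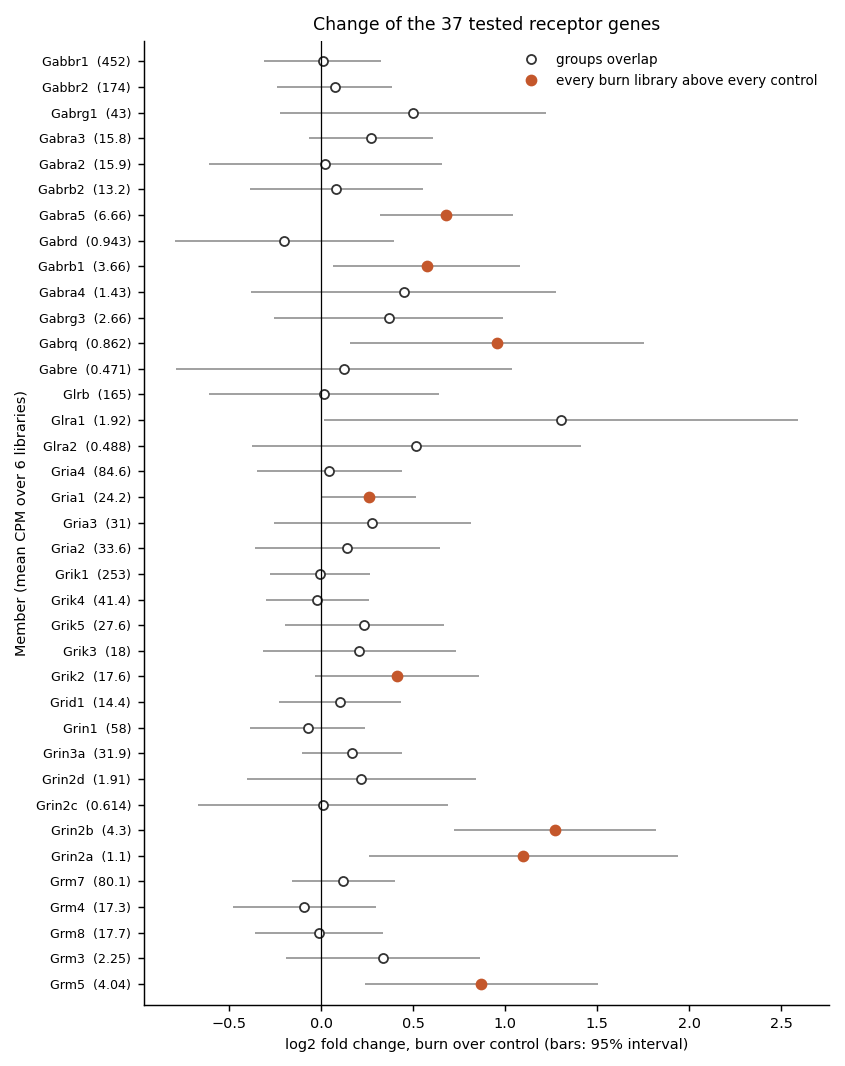
Log2 fold change of burn over control for 37 of the 42 tested members, with 95% intervals from the edgeR fit, ordered by class and control level; the mean CPM over 6 libraries stands beside each name. Filled points mark the 8 drawn members in which all burn libraries lay above all controls; most members above 10 CPM lie near 0, with Gabrg1 and Grik2 farthest from it among those drawn.

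The GABA-B genes had the highest summed level of any class, and Gabbr1 alone the highest of any member. Gabbr1, which encodes the subunit that binds GABA, stood at 419, 421 and 512 CPM in control 1 to 3 and at 408, 476 and 476 in burn 1 to 3. The groups overlapped, and the log2 fold change was 0.01 (SE 0.14, 95% interval -0.31 to 0.33). Gabbr2, whose subunit couples the pair to G proteins, had 147, 165 and 198 CPM in controls and 171, 184 and 181 after the burn, also overlapping (log2 fold change 0.07, SE 0.13). Per kilobase Gabbr1 made up 69.6 ± 1.25% of the class in controls and 68.5 ± 1.15% after the burn (SD, n = 3).

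Among the abundant GABA-A genes, Gabra3 encodes an alpha subunit known from sensory neurons. It had 15.4, 14.7 and 12.8 CPM in controls and 18.2, 14.7 and 18.8 after the burn, with burn 2 inside the range of the controls (log2 fold change 0.27, SE 0.15). Gabra2, another alpha subunit, had 13.6, 10.9 and 22.7 CPM in controls and 13.4, 16.9 and 17.8 after the burn. Its highest and its lowest value were both in controls, control 3 and control 2 (log2 fold change 0.02, SE 0.27). Gabrb2, a beta subunit, had 11.8, 9.85 and 16.8 CPM in controls and 12.7, 13.8 and 14.4 after the burn, with the same 2 control libraries at its ends (log2 fold change 0.08, SE 0.20). Gabrg1 had 32.6, 24.4 and 49.7 CPM in controls and 35.2, 48.3 and 67.5 after the burn; its groups overlapped (log2 fold change 0.50, SE 0.31), and leaving out burn 3 brought the value to 0.23 and leaving out control 3 to 0.82.

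The GABA-A members whose groups did not overlap were all below 10 CPM. Gabra5, the alpha subunit of extrasynaptic receptors, had 4.92, 5.01 and 5.44 CPM in controls and 7.20, 8.87 and 8.55 after the burn. Every burn value lay above every control value, a 1.60-fold difference (log2 fold change 0.68, SE 0.16, edgeR adjusted p 0.9998). The highest Gabra5 value was that of burn 2, at 8.87 against 8.55 in burn 3. Burn 2 had the lowest sum of spinal cord markers among the burn libraries. Its mean log2 marker level was 1.55, above the 0.404 to 1.30 of the controls. The relation of Gabra5 to these markers was not tested apart from the covariate fit given further below. Gabrb1 had 2.57, 3.12 and 3.17 CPM in controls and 4.51, 3.41 and 5.20 after the burn, without overlap (log2 fold change 0.57, SE 0.22). Gabrq, the theta subunit, had 17, 14 and 43 reads in controls and 35, 24 and 69 after the burn. In CPM these were 0.464, 0.779 and 0.540 against 1.55, 0.795 and 1.05, and burn 2 lay only just above control 2 (log2 fold change 0.95, SE 0.34). Gabrd, the delta subunit, was the one tested GABA-A gene with a negative value (-0.20, SE 0.26). In all, 13 of 14 tested GABA-A members were positive, where 52.1% of all genes were, and 3 lay fully above the controls, where 4.33% of all genes did.

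Several GABA-A genes lie beside each other, and their positions are those of GENCODE in GRCm38. Chromosome 5 holds Gabrg1, Gabra2, Gabra4 and Gabrb1 between 70751047 and 72149037, with log2 fold changes from 0.02 to 0.57. The X chromosome holds Gabre, Gabra3 and Gabrq between 72255999 and 72842602, with values from 0.12 to 0.95. On chromosome 7 Gabrg3 (56716465 to 57387188) neighbours Gabra5 (57407672 to 57510059), with values of 0.37 and 0.68. Neighbours could differ widely in level. On chromosome 11 Gabrb2 (42419757 to 42629028) stood at 12.8 CPM in controls, while Gabra6 (42306437 to 42321072) had 3 reads over the 3 control libraries and 3 over the 3 burn libraries. The difference between clusters was not tested.

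The 5 untested GABA-A members were near the limit of detection. Gabra6 and Gabrp had 3 reads in each group over all libraries. The rho genes, known from retina, had 39 control and 30 burn reads for Gabrr1, 23 and 33 for Gabrr2 and 15 and 27 for Gabrr3. Scaled to library size, the pooled burn to control ratio was 0.870 for Gabrr1 (95% exact counting interval 0.522 to 1.44), 1.62 for Gabrr2 (0.925 to 2.90) and 2.04 for Gabrr3 (1.05 to 4.12). Single libraries moved these ratios: burn 3 held 25 of the 33 burn reads of Gabrr2 and 20 of the 27 of Gabrr3, and without it they were 0.883 and 1.18. Without control 3 the ratio was 1.38 for Gabrr1 and 0.949 for Gabrr2, and without control 1 it was 2.47 for Gabrr2. These intervals cover counting error only, not the spread between libraries.

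Glycine receptor transcripts were almost entirely Glrb, the beta subunit, which anchors the receptor to gephyrin and does not form a channel alone. It took 98.0 ± 1.47% of the class per kilobase in controls and 96.3 ± 1.33% after the burn. Glrb had 167, 111 and 214 CPM in controls and 131, 153 and 213 after the burn, overlapping groups with a log2 fold change of 0.02 (SE 0.27). Glra1, the main alpha subunit of the adult spinal cord, had 1.26, 1.84 and 0.402 CPM in controls and 3.09, 1.56 and 3.41 after the burn. Burn 2 lay below control 2, so the groups overlapped, and the log2 fold change was 1.30 (SE 0.55, edgeR adjusted p 0.9998). In Glra1, as in the sum of the spinal cord markers, control 3 was the lowest library and burn 1 and burn 3 were the highest. Between the 2 deepest libraries Glra1 differed by 2.80 on the log2 scale and among the 4 shallower ones by 0.50. Without control 3 its log2 fold change was 0.84, and with the mean level of the spinal cord markers as a covariate -0.49 (SE 0.51). Glra2, the alpha subunit of the developing nervous system, had 13, 7 and 38 reads in controls and 10, 12 and 57 after the burn. In CPM these were 0.355, 0.390 and 0.478 against 0.442, 0.397 and 0.867, overlapping groups with burn 3 highest (log2 fold change 0.52, SE 0.38).

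Glra3, an alpha subunit of superficial dorsal horn, was below the filter and had 2, 1 and 5 reads in controls and 14, 6 and 30 after the burn. Every burn value in CPM (0.618, 0.199 and 0.456) lay above the controls (0.0546, 0.0556 and 0.0628). Pooled over libraries the ratio was 7.07 (95% exact counting interval 3.33 to 17.3, counting error only). It rests on 8 control reads, 5 of them in control 3, and was not computed without that library. With each other library left out it lay between 6.29 and 8.35. With no filter on low counts edgeR gave a log2 fold change of 2.75 (SE 0.61), which did not pass (adjusted p 0.324). Glra3 did not pass in DESeq2 either (adjusted p 0.468). Glra4 had 2 control and 3 burn reads.

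AMPA receptor transcripts were led by Gria4, a subunit of fast receptors, at 60.5 ± 2.30% of the class per kilobase in controls. Gria4 had 77.8, 73.5 and 98.7 CPM in controls and 70.7, 85.1 and 102 after the burn, with a log2 fold change of 0.04 (SE 0.17). Gria2, the subunit that limits calcium entry once its transcript is edited, took 9.36 ± 1.04% of the class per kilobase in controls and 9.52 ± 0.544% after the burn. Gria1 had 20.9, 22.5 and 22.8 CPM in controls and 28.0, 24.5 and 26.7 after the burn. Its groups did not overlap, and the difference was small, 1.20-fold (log2 fold change 0.26, SE 0.11, edgeR adjusted p 0.9998). Gria3 had 25.5, 29.5 and 29.2 CPM in controls and 29.5, 25.0 and 47.2 after the burn; burn 3 alone was high, and the log2 difference was 0.69 between the deepest libraries and -0.01 among the other 4.

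Kainate receptors were led by Grik1, known as the main kainate subunit of small sensory neurons, at 71.6 ± 3.45% of the class per kilobase in controls and 69.7 ± 1.60% after the burn. It had 256, 227 and 277 CPM in controls and 243, 257 and 257 after the burn. Its log2 fold change was -0.01 (SE 0.12, 95% interval -0.28 to 0.27), among the most precise of the family. Grik4 and Grik5 encode the high-affinity partner subunits. Grik4 had 37.5, 39.8 and 47.6 CPM in controls and 39.9, 43.3 and 40.0 after the burn (log2 fold change -0.02, SE 0.12). Grik5 had 21, 32.7 and 22.7 against 31.1, 25.9 and 32.4, control 2 being the highest of all 6 libraries (log2 fold change 0.23, SE 0.19). Grik2 had 14.2, 14.4 and 16.6 CPM in controls and 17.3, 16.8 and 26.0 after the burn, without overlap (log2 fold change 0.41, SE 0.19). Burn 2 lay just above control 3, and without burn 3 the value was 0.18. The proteins of the delta receptor genes act at synapses with cerebellin ligands. Grid1 had 11.8, 15.3 and 14.7 CPM in controls and 13.8, 15.8 and 15.1 after the burn (log2 fold change 0.10, SE 0.14).

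Of the NMDA receptor genes, Grin1, the obligatory subunit, took 66.7 ± 3.29% of the class per kilobase in controls and Grin3a, a glycine-binding subunit that lowers calcium entry, 26.8 ± 1.91%. Grin1 had 50.5, 59.0 and 69.0 CPM in controls and 52.9, 57.3 and 59.5 after the burn, and Grin3a 27.0, 32.8 and 30.6 against 31.3, 35.6 and 34.3. Their groups overlapped, with log2 fold changes of -0.07 (SE 0.13) and 0.17 (SE 0.12). The glutamate-binding subunits Grin2a to Grin2d stood lower, and the highest of them per kilobase in controls was Grin2d, with 1.53, 2.45 and 1.39 CPM in controls and 2.12, 1.85 and 2.13 after the burn.

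Grin2b, on chromosome 6 from 135713233 to 136173511, had the lowest p of the 42 tested members. It had 112, 39 and 184 reads in controls and 163, 141 and 421 after the burn, which is 3.06, 2.17 and 2.31 CPM against 7.20, 4.67 and 6.40. Every burn library lay above every control library. The 2.41-fold difference (log2 fold change 1.27, SE 0.24, 95% interval 0.72 to 1.82) did not pass in edgeR (adjusted p 0.563) or limma-voom (adjusted p 0.583) and passed in DESeq2 (adjusted p 0.00224). Over the 6 fits that each left out 1 library the value lay between 1.14 and 1.44. It was 1.43 between the 2 deepest libraries and 1.14 among the 4 shallower ones. The spinal cord marker sum of burn 2 was 126 CPM and that of control 1 and control 2 was 124 CPM each. The mean log2 CPM of the same markers was higher in burn 2, at 1.55, than in control 1 and control 2, at 1.30 and 1.25. Grin2b stood at 4.67 CPM in burn 2 and at 3.06 and 2.17 in these controls. The relation of Grin2b to these markers was not tested apart from a fit with their mean log2 level as a covariate. In that edgeR fit the unadjusted p of Grin2b was 0.080. With the spinal cord covariate the log2 fold change was 0.77 (SE 0.37, edgeR adjusted p 1), and over all its alternatives the adjusted p ran from 0.00224 to 1.

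Grin2a, the NMDA subunit of mature synapses, had 20, 17 and 50 reads in controls and 48, 30 and 88 after the burn. In CPM these were 0.546, 0.946 and 0.628 against 2.12, 0.993 and 1.34, so burn 2 exceeded control 2 by little. Its log2 fold change was 1.10 (SE 0.36, edgeR adjusted p 0.9998), and 0.48 with the spinal cord covariate. The log2 fold changes of Grin2c and Grin2d were 0.01 (SE 0.29) and 0.22 (SE 0.27). Grin3b was not tested, at 27 control and 20 burn reads, and 32.1% of its annotated exon length is shared with Tmem259 on the other strand. Of Grin1, 13.5% is shared with the antisense gene Grin1os. Tmem259 is among the counted genes and Grin1os is not. The strand setting of the counting is unknown, so how reads from the shared stretches were assigned cannot be told for either pair.

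Metabotropic glutamate receptors were led by the presynaptic, inhibitory group III genes. Grm7 took 69.2 ± 1.80% of the class per kilobase in controls, Grm4 15.8 ± 2.39% and Grm8 9.48 ± 0.591%. Grm7 had 75.2, 69.0 and 86.2 CPM in controls and 76.5, 84.6 and 89.2 after the burn (log2 fold change 0.12, SE 0.12). Grm4 had 14.0, 18.3 and 21.2 against 15.7, 17.6 and 16.9 (log2 fold change -0.09, SE 0.17), and Grm8 had 17.0, 15.1 and 21.2 against 17.0, 17.5 and 18.5 (log2 fold change -0.01, SE 0.15). These abundant members overlapped between the groups.

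Grm5, a group I gene whose receptor couples to calcium release and is known from dorsal horn neurons in pain, was above the controls in all burn libraries. It had 3.25, 2.11 and 3.15 CPM in controls and 5.39, 3.71 and 6.60 after the burn. Its 1.83-fold difference did not pass (log2 fold change 0.87, SE 0.27, edgeR adjusted p 0.9998). In burn 2 it stood at 3.71, close to the 3.25 of control 1. For Grm3, a group II gene of glia and neurons, the log2 fold change was 0.34 (SE 0.23). Grm2 and Grm6 were not tested, with 9 and 2 control reads and 10 and 13 burn reads.

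**Figure D3:**
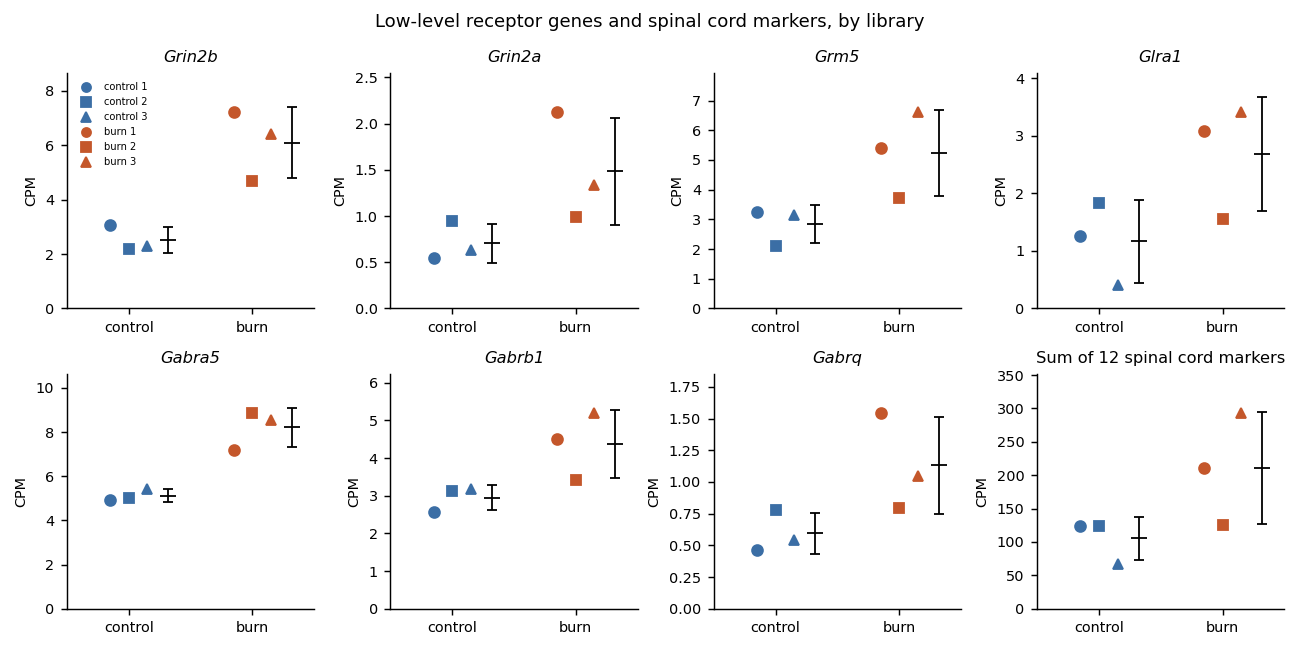
CPM in each library of 7 low-level members and, at the lower right, the summed CPM of 12 spinal cord markers; black bars give the mean ± SD of the 3 libraries of a group. Burn 2 lies close to the controls in the marker sum, Grin2a, Glra1, Grm5, Gabrb1 and Gabrq, and apart from them in Grin2b and Gabra5. In the mean log2 level of the markers, which is not drawn, burn 2 lies above all controls.

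With the spinal cord covariate, added after the data were seen, 1 member, Gabra5, was higher at an unadjusted p under 0.05, where 0.764% of genes were. The log2 fold change of Grm5 moved from 0.87 to 0.48 (SE 0.51). Those of Gabrb1 and Gabrq moved from 0.57 to 0.31 (SE 0.40) and from 0.95 to 0.42 (SE 0.61). That of Gabra5 moved from 0.68 to 0.86 (SE 0.26). Members above 10 CPM moved in both directions. Gabra2 went from 0.02 to 0.68 (SE 0.43), Gabrb2 from 0.08 to 0.52 (SE 0.33) and Gabra3 from 0.27 to -0.11 (SE 0.19). For each of these members the SE was larger than in the fit without the covariate. The covariate was itself higher in the burn libraries, and the part of spinal cord cells in these values was not tested. In bulk tissue a change in the number of cells of a type and a change in RNA per cell cannot be told apart.

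**Figure D4:**
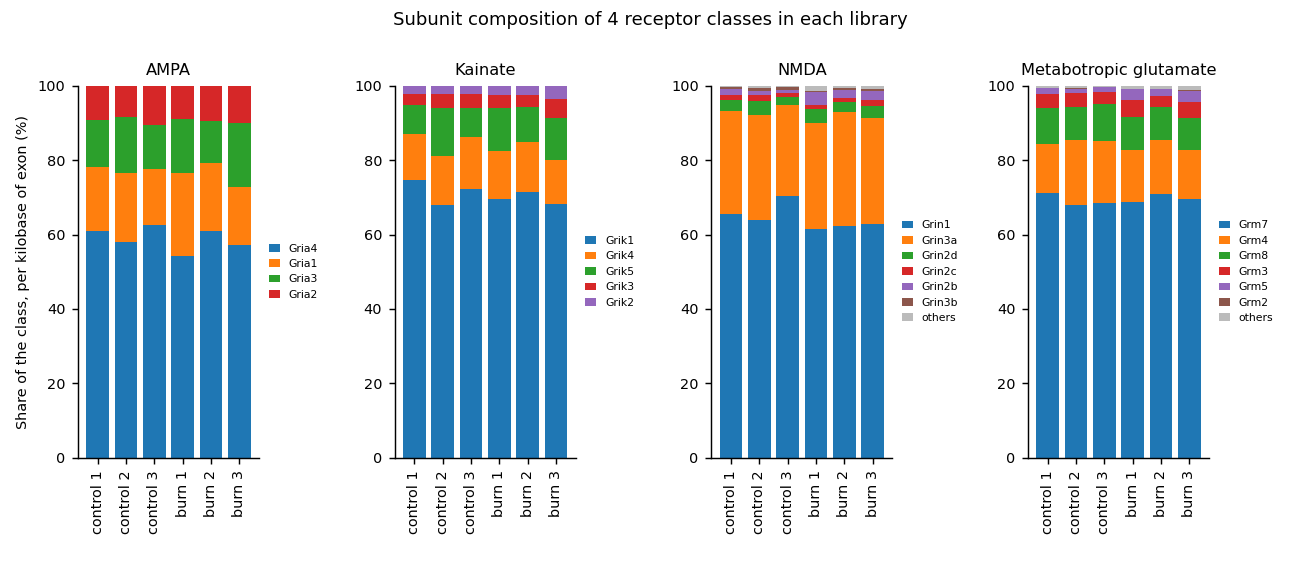
Share of each subunit gene in its class, from CPM per kilobase of exon, in every library for 4 classes; each bar is 1 library, and grey holds the remaining genes. Gria4, Grik1, Grin1 and Grm7 are the largest parts of their classes in all 6 libraries.

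Genes that assemble, anchor or edit these receptors were read from the same fit. Of 53 such genes counted 52 were tested, and 0 passed in edgeR, DESeq2 or limma-voom. With an unadjusted p under 0.05 as the limit, 6 were higher and 0 lower, where 2.04% of all genes were higher, and 34 of 52 had a positive sign, where 52.1% of all genes did (median log2 fold change 0.06). The 6 genes were Shisa7 (log2 fold change 0.74, SE 0.24) and Plcl1 (0.33, SE 0.11), which bind GABA-A receptors, Nlgn2 (0.33, SE 0.14), the adhesion protein of inhibitory synapses, Neto1 (0.52, SE 0.18), an auxiliary subunit of kainate receptors, and Shisa6 (0.62, SE 0.23) and Cacng8 (0.90, SE 0.35), auxiliary subunits of AMPA receptors. All burn libraries lay above all controls in 7 of the 52 genes, these 6 and Adarb1, which encodes an RNA editing enzyme, where 4.33% of all genes were fully higher. Without control 1 the unadjusted count was 0, where 1.43% of all genes were higher, and without burn 3 it was also 0, where 1.74% were. Gphn, which encodes gephyrin, the scaffold of inhibitory synapses, stood at 54.6 ± 6.68 CPM in controls and 57.1 ± 4.10 after the burn (SD, n = 3; log2 fold change 0.06, SE 0.12).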

How the data were processed

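The authors deposited raw read counts by gene symbol, 1 file per library. STAR, SAMtools and HTSeq are named per the submitters' processing notes, as are mm10 and GRCm38. The annotation counted and its strand setting are unknown here. The 5 HTSeq tally lines of each file (49.2% to 56.2% of its entries) were left out. Pairs of libraries within a group differed by more than sampling noise, with a chi-square of 43.6 to 203 per degree of freedom.

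Burn was compared with control in edgeR 4.0.16 (R 4.3.3; filterByExpr with a minimum count of 10, TMM, glmQLFit with robust set, glmQLFTest, two-sided) over 17534 genes, with Benjamini-Hochberg adjustment over all of them and calls under 0.05. A standard error is the absolute log2 fold change over the square root of F. Alternatives were DESeq2 1.42.0, limma-voom (limma 3.58.1), other scalings, filters and thresholds, a depth term, the 4 shallower libraries, a replicate block and each library left out; a covariate of spinal cord markers and the pooled ratios without each library were added after the data were seen. Exon lengths (the union over transcripts), coordinates and exon overlaps are those of GENCODE mouse release 21, which held all 52 members, and promoter sequences those of RefSeq. Exact counting intervals are at 95% and cover counting error only. The fits were tested on simulated data.

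Values in every library are given for the 3 highest members and the 2 with the lowest p of each class, members called in any fit, and members without overlap and with a log2 fold change of at least 0.5; of the assembly, anchoring and editing lists, for the 6 genes with the lowest p, only the fold changes are given. Other genes named were chosen after their values were seen. The members and lists were chosen with earlier results of these data known. Some members are not reported by name here.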

Additional observations from a re-analysis of the deposited data

How the results depend on the processing

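Over all genes edgeR called 4 with adjusted p under 0.05. The number was 14 with no filter on low counts, 28 with DESeq2, 38 with the depth term, 15 with the 4 shallower libraries alone, 7 at an adjusted p under 0.1 and 0 with the spinal cord covariate, and 1 to 6 when 1 library was left out. The count of called members was 0 in every alternative except DESeq2, which called 1, and that of assembly, anchoring and editing genes was 0 in all. Members without overlap numbered 20 in the 4 shallower libraries alone, where 14.2% of all genes were fully higher, and 9 to 20 when 1 library was left out, where 6.74% to 10.1% were; with all 6 libraries 4.33% were. Of 42 members, 17 kept their sign in all alternatives, Grin2b, Grin2a, Grm5, Gabra5, Gabrb1, Gabrq and Gria1 among them, while 25 changed it in some. The leading gene by level was the same in 12 of 12 subunit groups with the longest transcript as length and in 11 without length. The libraries with the same number in their titles did not deviate together (correlations -0.09 and -0.06 across genes), while the burn library without a number, here burn 3, and control 3, the 2 deepest, did (0.44), as did control 2 with burn 1 (0.44) and control 1 with burn 2 (0.38); the replicate block over libraries 1 and 2 gave 4 calls over all genes and 0 members; at an unadjusted p under 0.05 it left 3 members, all higher, where 0.872% of genes were. Members under 1 CPM rest on few reads, which limits their precision, and the causes of these changes were not tested.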
